A study of Mus musculus with 8 samples.

Results

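Chromatin accessibility was examined at 10 genes of the TGF-β pathway in alveolar macrophages (AMs): the ligand gene Tgfb1, the receptor genes Tgfbr1 and Tgfbr2, the SMAD genes Smad2, Smad3, Smad4 and Smad7, the corepressor genes Ski and Skil, and the feedback inhibitor gene Pmepa1. An accessible region was any stretch covered by an ATAC-seq peak of at least 1 library that overlapped one of the gene bodies or the 20 kb on either side (mm10, GENCODE M21), with peaks of different libraries joined where they shared a base. The 10 loci held 121 such regions, and 107 of them, called consensus regions here, were supported by peaks of 2 libraries or more, out of 72711 consensus regions in the genome. The study compared AMs sorted from bronchoalveolar lavage of 9-week-old Cd11cCre+ Rxrab fl/fl mice (KO) and of Rxrab fl/fl mice (WT). The paper's main text describes the ATAC-seq cells of both genotypes as mature AMs, though legends of a supplementary figure name immature AMs for the KO. The labels say only AMs. Each genotype gave 4 libraries, numbered 1_2, 1_3, 2 and 3 in KO and 1_2, 1_3, 3 and 4 in WT, and values below are listed in that order. Both groups carried floxed alleles of Rxra and Rxrb, which encode the nuclear receptors RXRα and RXRβ, and only the KO carried Cre recombinase, driven by the Cd11c (Itgax) promoter, which is active in AMs and in other CD11c+ cells. The controls were littermates, and the labels name no treatment. The question was which chromatin regions of AMs change accessibility when RXRα and RXRβ are deleted.

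TGF-β binds the type II receptor TGFBR2, which recruits and phosphorylates the type I receptor TGFBR1. The activated complex phosphorylates SMAD2 and SMAD3, which join SMAD4, enter the nucleus and bind DNA at short CAGAC elements. SMAD7 blocks the receptors, SKI and SKIL (also called SnoN) hold SMAD complexes in a repressed state, and PMEPA1 sequesters SMAD2 and SMAD3. The genes of SMAD7, SKIL and PMEPA1 are well-known targets of the pathway itself. AMs make TGF-β1 and depend on it, through TGFBR2, for their development and upkeep.

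Some of the regions on which the comparison turned are shown first as sequence, with the short elements they hold. Not printed are a Skil region at 39.7 kb and a Tgfb1 region at 17.0 kb from the 5′ end, which held no match. Also not printed are Pmepa1 regions at 9.73, 17.8 and 46.5 kb, which held at least 1 match each. Each stretch is the plus strand of GRCm38 (mm10), read 5′ to 3′, and runs 100 bases to either side of the summit of the strongest peak, cut back where an annotated exon begins. Capitals mark matches, on either strand, to any of these patterns: the SMAD half-site CAGAC, the SMAD palindrome GTCTAGAC, PU.1 GAGGAAGT, C/EBP TTGCNNAA, RUNX TGTGGTT, AP-1 TGANTCA, and DR1, a pair of AGGTCA half-sites spaced by 1 base with at most 2 mismatches, the element that RXR binds with PPARγ. The first 3 lines are the 5′ end of Pmepa1 at chr2:173276534-173276697 and 2 regions of its first 13 kb at chr2:173272188-173272388 and chr2:173263682-173263882, where the genotypes differed most.
Pmepa1 5′ end: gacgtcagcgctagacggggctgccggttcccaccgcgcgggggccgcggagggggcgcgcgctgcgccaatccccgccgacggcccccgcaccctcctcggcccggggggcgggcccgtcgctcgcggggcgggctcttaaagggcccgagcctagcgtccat
Pmepa1 +4.2 kb: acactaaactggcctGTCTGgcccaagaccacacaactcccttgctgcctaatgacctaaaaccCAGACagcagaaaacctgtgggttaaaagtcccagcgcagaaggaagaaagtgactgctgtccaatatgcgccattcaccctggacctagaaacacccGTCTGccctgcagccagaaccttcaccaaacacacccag
Pmepa1 +12.8 kb: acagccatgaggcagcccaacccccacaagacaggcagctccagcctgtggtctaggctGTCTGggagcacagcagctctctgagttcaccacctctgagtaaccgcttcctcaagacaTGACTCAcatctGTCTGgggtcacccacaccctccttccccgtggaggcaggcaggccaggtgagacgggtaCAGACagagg

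The 5′ end stretch is rich in G and C and held no match in the part shown (its 2 CAGAC matches take in exon bases left out here), the +4.2 kb stretch held 3 CAGAC matches, and the +12.8 kb stretch held 3 CAGAC matches and a TGACTCA that reads as AP-1 on both strands. The next 4 lines are a Smad3 intron region at chr9:63738101-63738301, a Ski intron region at chr4:155178364-155178564, a region downstream of Tgfbr2 at chr9:116077526-116077726 and a region downstream of Tgfb1 at chr7:25710044-25710244. They stand for a called region with lower tags in KO, a called region with higher tags in KO, the only called receptor region and a Tgfb1 region that had a peak in WT libraries only.
Smad3 +19.8 kb: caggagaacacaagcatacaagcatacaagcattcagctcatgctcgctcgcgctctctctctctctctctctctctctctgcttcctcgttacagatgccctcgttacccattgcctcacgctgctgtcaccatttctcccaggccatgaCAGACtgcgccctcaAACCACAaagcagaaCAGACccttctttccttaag
Ski +44.1 kb: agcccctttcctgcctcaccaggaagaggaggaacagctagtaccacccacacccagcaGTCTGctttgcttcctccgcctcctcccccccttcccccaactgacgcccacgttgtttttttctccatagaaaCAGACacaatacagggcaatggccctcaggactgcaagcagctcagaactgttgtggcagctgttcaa
Tgfbr2 +97.7 kb: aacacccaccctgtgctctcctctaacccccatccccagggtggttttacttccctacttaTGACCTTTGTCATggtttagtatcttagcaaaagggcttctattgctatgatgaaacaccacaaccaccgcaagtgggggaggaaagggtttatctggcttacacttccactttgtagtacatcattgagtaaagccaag
Tgfb1 +23.1 kb: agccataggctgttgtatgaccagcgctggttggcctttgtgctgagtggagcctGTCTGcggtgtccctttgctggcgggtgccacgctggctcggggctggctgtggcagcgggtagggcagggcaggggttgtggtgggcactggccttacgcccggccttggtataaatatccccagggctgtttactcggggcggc

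The Smad3 stretch held 2 CAGAC matches and a RUNX match, the Ski stretch 2 CAGAC matches, the Tgfb1 stretch 1 CAGAC match, and the Tgfbr2 stretch 1 DR1 match. A match is a run of letters and says nothing of what was bound.

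The libraries held 60363 to 65009 peaks in KO and 61240 to 72484 in WT, and the background tags per 200 bp, a measure of depth, ran from 1.12 to 1.86 in KO and from 1.42 to 2.26 in WT. Summit tags are the cut sites, each extended to 200 bp, that overlap at a peak's highest point, and they were worked back from the deposited fold and −log10 p-value as whole numbers. In the deleted gene Rxra, chr2:27744546-27744950, 1 of 16 consensus regions, was found in the 4 WT libraries (38, 46, 38 and 42 tags) and in no KO library. Of 12 AM marker genes, 10 had a promoter peak in all 8 libraries, among them Siglecf, Marco and Pparg, and Chil3 and Krt79 had none. None of the 5 T cell markers and 1 of 5 neutrophil markers (S100a8) had one in all libraries. Of the genes listed as epithelial markers, Epcam, Cdh1 and Scgb1a1 had a promoter peak in all 8 and Sftpb and Sftpc had none. The paper counts Cdh1 among the AM-core genes. Of the B cell, endothelial and fibroblast markers, 0 of 4, 1 of 4 (Pecam1) and 1 of 4 (Pdgfra) had one in all 8. The 8 marker genes of monocytes and immature macrophages gave 4 to 6 promoter peaks per KO library and 5 to 6 per WT library, and the part of other cells in the results was not tested. At Xist, 2 of 3 consensus regions were found in every KO library and in no WT library. The labels give no sex per library, so a sex difference between the groups and the genotype cannot be told apart. All 10 genes lie on autosomes.

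The loci carried fewer peaks in KO (93, 92, 88 and 84) than in most WT libraries (98, 110, 104 and 93), and Pmepa1 set itself apart with 2 peaks in each KO library against 8, 10, 9 and 8 in WT. At Tgfb1 the counts were 10 to 11 in KO and 12 to 13 in WT. At the other 8 genes the ranges of the genotypes met or overlapped, for example 18 to 20 and 18 to 23 at Tgfbr2, 18 to 22 and 19 to 21 at Ski, and 8 to 9 in both at Skil. Peak counts follow depth as well as accessibility, and no test was made on them.

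Of the 107 consensus regions, 9 (8.41%) had a peak in all 4 WT libraries and in no KO library, against a background of 0.820% over all consensus regions. None had a peak in all 4 KO libraries and in no WT library, against a background of 0.285%. Pmepa1 held 6 of the 9, Tgfb1 held 2 and Tgfbr2 held 1, so that 3 of 99 regions outside Pmepa1 were of this kind. For 34 of the 107 regions the nearest annotated start was that of another gene. A lesser imbalance, 4 libraries against 1 or 3 against 0, was seen in 1 region towards WT (0.935%, against 2.64% of all) and in 1 towards KO (0.935%, against 0.91% of all). Of the 107 regions, 72 (67.3%) had a peak in all 8 libraries, close to the 65.3% of the genome-wide set, and their tags were compared with limma on log2(tags + 0.5), centred on each library's median, with Benjamini-Hochberg adjustment over all 47499 such regions. At an adjusted p under 0.05, 8 of 72 (11.1%) were lower in KO, against a background of 7.03%, and 3 of 72 (4.17%) were higher, against a background of 5.81%. The median log2 difference (KO minus WT) was 0.0085 in the 72 regions and 0.043 in all regions tested. The replicates are separate libraries, but the labels do not say whether each came from its own animal, so the p-values measure the spread between libraries.

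**Figure D1:**
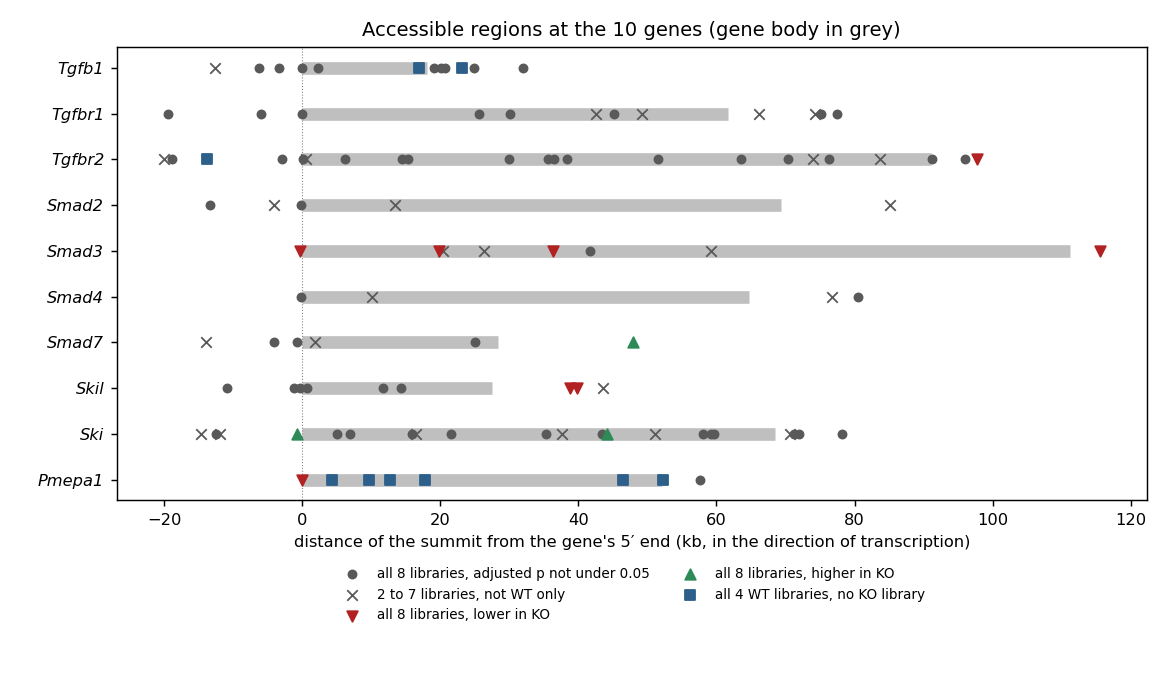
Each row is a gene drawn in the direction of transcription, with its body in grey, and each symbol is a consensus region placed by the distance of its summit from the gene's 5′ end in kb. Squares (peak in all 4 WT libraries and no KO library) run along Pmepa1, which holds 6 of the 9, and downward triangles (lower in KO) lie at 4 Smad3 regions.

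At Pmepa1 (ENSMUSG00000038400.15, chr2:173224458-173276533, minus strand), 1 of 8 consensus regions was lower in KO by the test, 6 had a peak in WT libraries only, and 1 showed no difference beyond the spread between replicates. The region at the 5′ end, chr2:173276370-173276804 with its summit at −0.072 kb (negative distances lie upstream), had 18, 11, 10 and 11 tags in KO and 114, 133, 142 and 137 in WT. The groups lay far apart, and the median-scaled means were 13.3 ± 3.18 tags for KO and 123 ± 24.3 for WT (SD over the 4 libraries of each). The log2 difference was −3.16 (SE 0.18, adjusted p = 6.75e-19 by limma), that is 8.96-fold more tags in WT, and in this fit it ranked 1 of 47499 regions tested by the size of a decrease. It ranked 8 by the limma p-value, and regions without a peak in every library were not ranked. The KO summits lay near the smallest called in those libraries (9, 8, 7 and 6 tags). The call held without any 1 library (highest adjusted p = 1.29e-15). With the deposited fold over local background in place of tags the difference was −1.0 (adjusted p = 0.0025).

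Inside the Pmepa1 gene body, 5 intron regions had a peak in WT libraries only. The one with most tags, chr2:173263575-173263963 at 12.8 kb from the 5′ end, had 92, 104, 113 and 84 tags in WT. The one nearest the 5′ end, chr2:173272049-173272659 at 4.25 kb, had 71, 78, 89 and 57 tags. The region at 9.73 kb, chr2:173266502-173266997, had 43, 52, 64 and 41 tags. All 3 thus lay well above the smallest summit called in any library, which was 6 to 9 tags. At 17.8 kb (chr2:173258479-173258959) the WT libraries had 39, 58, 40 and 45 tags. At 46.5 kb (chr2:173229568-173230312) they had 27, 28, 28 and 22. The sixth region, chr2:173224031-173224483 at 52.2 kb, had its summit just past the 3′ end of the gene, with 20, 29, 30 and 22 tags. For the regions at 46.5 and 52.2 kb the nearest annotated start was that of Zbp1, 11.1 and 5.36 kb away. The WT tags were thus higher in the first 18 kb of the gene than towards its 3′ end. In bulk ATAC-seq, a smaller share of open cells and less opening per cell cannot be told apart.

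No KO library had a peak in these 6 regions, which is not a count of 0. Over the background at the nearest KO peak, 4.28 to 17.9 kb away, a summit needed 6 to 14 tags to reach the weakest p-value called in that KO list, and a called peak was also at least 200 bp wide. The WT summits in the 6 regions stood 5.03- to 12.8-fold over their local background. The eighth region of the locus, chr2:173218455-173219532, lies at the promoter of the neighbouring gene Zbp1, which encodes a sensor of Z-form nucleic acid, and had a log2 difference of 0.05 (SE 0.11, adjusted p = 0.806).

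**Figure D2:**
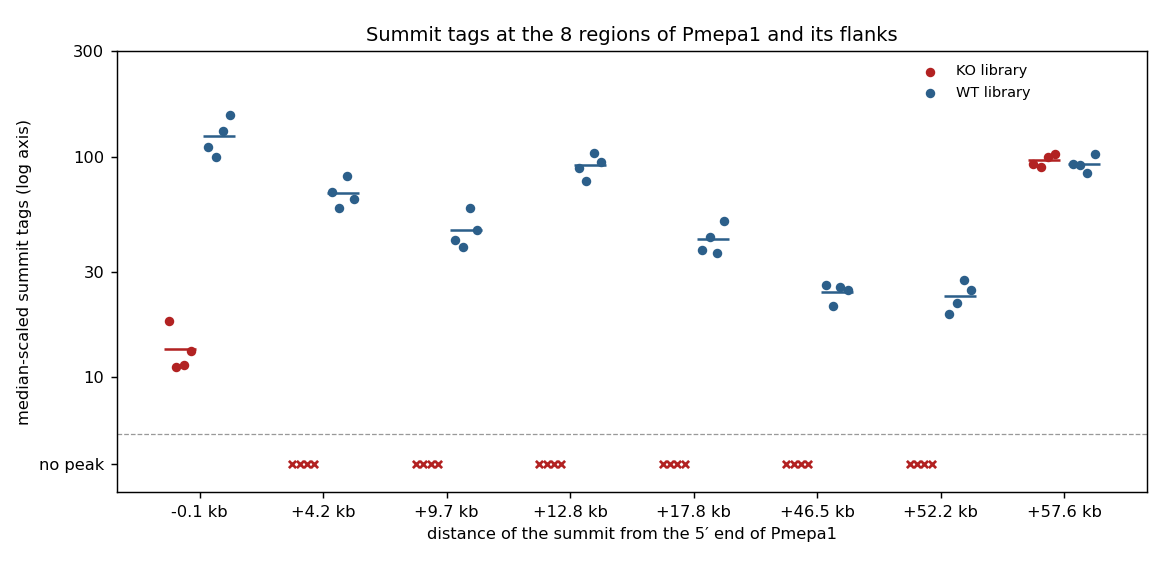
Median-scaled summit tags (log axis) at the 8 regions of Pmepa1 and its flanks, ordered by the distance of the summit from the 5′ end, with each point a library, bars the group means and crosses the libraries without a peak. KO libraries have no peak in 6 regions, lie below 20 tags at the 5′ end, and overlap WT at 57.6 kb, the Zbp1 promoter.

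Lower tags were also found past the 20 kb flanks on both sides of Pmepa1. Within 150 kb of the gene body lay 19 consensus regions, including the 8 described above. Of the 19, 7 had a peak in the 4 WT libraries only and none in the 4 KO libraries only. Of the 7 present in every library, 3 were lower and none was higher in KO. The 8 regions of the locus supplied 6 of the 7 found in WT only and 1 of the 3 lower, the promoter. Over all regions the shares were 0.820% in WT only and 7.03% lower. Upstream, chr2:173337589-173338054 was lower by a log2 difference of −1.82 (SE 0.15, adjusted p = 6.53e-13). On the 3′ side, chr2:173172917-173173391, 20.1 kb from the start of Pck1, the gluconeogenic enzyme gene, was lower by −1.0 (SE 0.13, adjusted p = 1.06e-07). The seventh region found in WT only, chr2:173110601-173110977, lay at the start of Ctcflos. The region at 90.0 kb, between Zbp1 and Pck1, had a log2 difference of 0.42 (SE 0.21, adjusted p = 0.181), so lower tags were not measured at every region in between. This wider window was chosen after the values at Pmepa1 had been seen.

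At Tgfb1 (ENSMUSG00000002603.15, chr7:25687002-25705077, plus strand), which encodes the TGF-β1 precursor, none of the 9 regions present in every library passed the test. The promoter, chr7:25686747-25687601, had 120, 97, 86 and 90 tags in KO and 90, 102, 120 and 92 in WT. The groups overlapped, with a log2 difference of 0.17 (SE 0.12, adjusted p = 0.371). The most accessible region of all 10 loci lay 20.7 kb from the 5′ end and downstream of the gene, chr7:25707474-25708245, with 649, 634, 468 and 519 tags in KO and 659, 729, 753 and 613 in WT. These groups overlapped too after scaling (log2 difference −0.07, SE 0.08, adjusted p = 0.587).

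On either side of this region lay 1 that had a peak in WT libraries only. In the last part of the gene, chr7:25703864-25704145 had 140, 174, 160 and 158 tags in WT. Downstream, chr7:25709997-25710258 had 154, 185, 169 and 177 tags. These are tall summits, but they rose only 2.17- to 2.72-fold over a local background of 53.8 to 80.9 tags, unlike those of Pmepa1. The nearest KO peaks lay 1.76 to 2.04 kb away over a background of 38.7 to 57.6 tags, where a summit needed 61 to 86 tags to be called, so a KO library without a peak may still have held many tags. The nearest annotated start of both was that of Ccdc97, 15.1 and 8.94 kb away.

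At the promoters of the receptor genes no difference passed the test. At Tgfbr1 (ENSMUSG00000007613.15, chr4:47353222-47414931, plus strand), the type I receptor gene, the region at the 5′ end, chr4:47352726-47353644, had 460, 425, 404 and 372 tags in KO and 425, 464, 415 and 394 in WT. Scaled values overlapped, at 446 ± 13.3 for KO and 395 ± 42.1 for WT (SD, n = 4 each), and the log2 difference of 0.18 (SE 0.08) did not pass the test (adjusted p = 0.118, and 0.024 without WT replicate 4, where it was 0.24). Its most accessible region elsewhere, chr4:47333516-47334038 at −19.5 kb, had 139, 121, 111 and 108 tags in KO and 130, 165, 139 and 119 in WT, a difference of 0.01 (SE 0.10, adjusted p = 0.961). None of the 8 Tgfbr1 regions tested was called, and their differences ran from −0.27 to 0.33.

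At Tgfbr2 (ENSMUSG00000032440.13, chr9:116084293-116175360, minus strand), the type II receptor gene, 1 of 17 tested regions was lower in KO and none was higher. Over all regions tested 7.03% were lower, so 1 call of 17 does not set the locus apart. The promoter, chr9:116175039-116175550 with its summit in the first exon, had 207, 186, 194 and 194 tags in KO and 228, 254, 197 and 218 in WT, a log2 difference of 0.02 (SE 0.09, adjusted p = 0.925). The most accessible region, chr9:116178104-116178562 at −2.97 kb, had 250, 212, 210 and 221 tags in KO and 222, 279, 268 and 189 in WT, a difference of 0.13 (SE 0.09, adjusted p = 0.364). At both the scaled groups overlapped.

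The called region, chr9:116077428-116077885, lies past the 3′ end at 97.7 kb from the 5′ end and is the one whose DR1 match is printed above. It had 133, 112, 84 and 85 tags in KO and 141, 193, 150 and 114 in WT. KO replicate 1_2 overlapped WT after scaling, and the log2 difference was −0.32 (SE 0.11, adjusted p = 0.039). The call was lost in 5 of 8 fits without 1 library, with an adjusted p of 0.181 without KO replicate 2, 0.124 without KO replicate 3, 0.07 without WT replicate 1_2, 0.108 without WT replicate 1_3 and 0.08 without WT replicate 3. Regions at 96.0 kb (−0.33, SE 0.12, adjusted p = 0.0534) and 38.3 kb (−0.24, SE 0.09, adjusted p = 0.0853) were not called. Of the 17 tested differences 10 were negative. Upstream, at −13.8 kb, a region with a peak in WT only, chr9:116188930-116189316, had 25, 24, 12 and 15 tags in WT, 0.041 kb from the start of the predicted gene Gm4668. WT replicate 3 had a peak of 200 bp there, the least width in the lists, and a KO summit needed 6 to 8 tags.

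**Figure D3:**
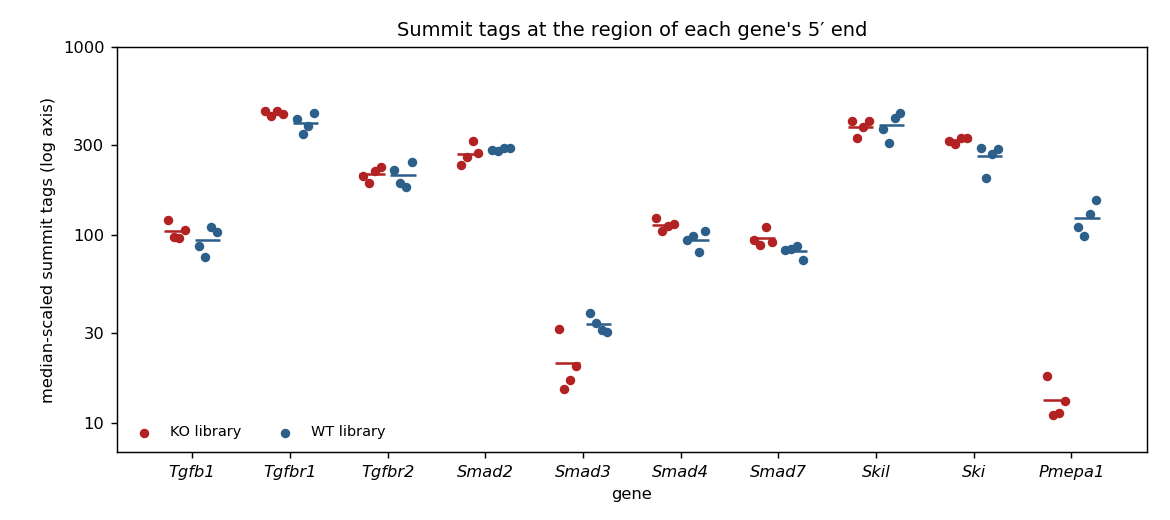
Median-scaled summit tags (log axis) at the region of each gene's 5′ end, with each point a library and bars the group means (n = 4 each). Pmepa1 is the gene whose genotypes lie farthest apart (13.3 and 123 tags on average), Smad3 follows (21.0 and 33.6, with KO replicate 1_2 in the WT range), and at Tgfbr1, Tgfbr2, Smad2, Skil and Tgfb1 the groups overlap as well. At Smad4, Smad7 and Ski all KO libraries lie above all WT libraries, and of these only Ski was called.

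Among the receptor-regulated SMADs, Smad3 (ENSMUSG00000032402.12, chr9:63646767-63757994, minus strand) was lower in KO at 4 of its 5 tested regions, the highest share of lower calls among the members with more than 2 tested regions. The strongest call was the intron region chr9:63738019-63738431, 19.8 kb from the 5′ end, with 44, 46, 24 and 34 tags in KO and 59, 75, 74 and 80 in WT. The groups did not overlap, and the log2 difference was −0.77 (SE 0.17, adjusted p = 0.000986), or 1.71-fold more tags in WT. A region past the 3′ end and inside the neighbouring gene Aagab, chr9:63642232-63642687 at 116 kb, had 41, 33, 27 and 25 tags in KO and 50, 60, 79 and 52 in WT. Here too the groups did not overlap (−0.71, SE 0.17, adjusted p = 0.0026), and both calls held without any 1 library. With the deposited fold in place of tags, the region at 116 kb was the only Smad3 call, and that at 19.8 kb had a difference of −0.44 (adjusted p = 0.0551).

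The Smad3 promoter, chr9:63757778-63758557, had 32, 15, 15 and 17 tags in KO and 40, 46, 34 and 27 in WT. KO replicate 1_2 reached the WT range after scaling, and the other KO libraries lay below it (log2 difference −0.71, SE 0.20, adjusted p = 0.0132). The adjusted p was 0.062 without KO replicate 1_3, 0.057 without KO replicate 2 and 0.052 without WT replicate 1_2. The fourth region, in the intron at 36.3 kb, had a difference of −0.67 (SE 0.21, adjusted p = 0.0289) and was lost in 5 of 8 fits without 1 library (without KO replicates 2 and 3 and WT replicates 1_2, 1_3 and 4, highest adjusted p = 0.186). The fifth had a difference of 0.04. An intron region beside the strongest call, chr9:63737534-63737914 at 20.3 kb, had a peak in WT replicates 1_2, 1_3 and 3 (12, 16 and 15 tags) and in no other library. Of the 10 genes, Smad3 had the lowest WT promoter after scaling, at 33.6 ± 3.77 tags (SD, n = 4), and its 5 tested regions had mean tags of only 28.3 to 54.5.

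Smad2 (ENSMUSG00000024563.16, chr18:76241580-76310963, plus strand), its closest relative, had only 2 tested regions and no call. Its promoter, chr18:76241044-76242401, had 236, 256, 279 and 231 tags in KO and 293, 375, 316 and 257 in WT. The scaled groups overlapped, with a log2 difference of −0.09 (SE 0.08, adjusted p = 0.555). Elsewhere, the region with most tags over the libraries that had a peak there was chr18:76237405-76237625 at −4.10 kb. It had a peak in KO replicates 1_2, 1_3 and 2 (54, 54 and 50 tags) and in WT replicate 1_3 (78 tags). The other tested region, at −13.4 kb, had 27, 40, 42 and 39 tags in KO and 50, 70, 52 and 38 in WT (log2 difference −0.27, SE 0.17, adjusted p = 0.316). That the difference at the Smad3 promoter was larger than at the Smad2 promoter was not tested.

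Smad4 (ENSMUSG00000024515.13, chr18:73639009-73703780, minus strand), which encodes the shared partner of the receptor-regulated SMADs, had no called region either. The promoter, chr18:73703163-73704286, had 123, 104, 99 and 96 tags in KO and 97, 132, 89 and 93 in WT. After scaling the KO libraries lay just above all WT libraries, at 113 ± 7.18 against 94.6 ± 9.86 tags (SD, n = 4 each), and the log2 difference of 0.26 (SE 0.11) did not pass the test (adjusted p = 0.109). Its other tested region, chr18:73623056-73623465 at 80.5 kb, had 72, 59, 48 and 51 tags in KO and 55, 76, 46 and 40 in WT (0.32, SE 0.15, adjusted p = 0.152).

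At Smad7 (ENSMUSG00000025880.11, chr18:75367529-75395935, plus strand), the inhibitory SMAD gene, 1 of 4 tested regions was higher in KO. This region, chr18:75415279-75415716, lies 47.9 kb from the 5′ end and past the 3′ end, and had 32, 21, 26 and 33 tags in KO and 18, 25, 20 and 22 in WT. The scaled groups overlapped through KO replicate 1_3 and WT replicate 4 (log2 difference 0.59, SE 0.20, adjusted p = 0.0435). It was lost in 6 of 8 fits without 1 library (without KO replicates 1_2, 2 and 3 and WT replicates 1_2, 1_3 and 3), with an adjusted p of up to 0.184. The region at the 5′ end, chr18:75366436-75367739, whose summit lies within the neighbouring gene Gm20544, had 95, 88, 98 and 77 tags in KO and 86, 113, 96 and 65 in WT (0.23, SE 0.12, adjusted p = 0.207). The region at −4.08 kb, chr18:75363153-75363644, had 84, 98, 109 and 97 tags in KO and 101, 146, 94 and 74 in WT (0.15, SE 0.12, adjusted p = 0.436). Neither passed the test.

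Both corepressor genes had called regions, lower in KO at Skil and higher at Ski. Over all regions tested 7.03% were lower and 5.81% were higher. At Skil (ENSMUSG00000027660.16, chr3:31095058-31122577, plus strand), 2 of 8 tested regions were lower in KO, both in the 3′ flank on the way to Cldn11, a tight junction gene. The region chr3:31134536-31135044, 39.7 kb from the 5′ end, had 23, 30, 26 and 18 tags in KO and 43, 81, 42 and 38 in WT (log2 difference −0.80, SE 0.18, adjusted p = 0.0017), or 1.74-fold more in WT. The region next to it, chr3:31133635-31134092, had 27, 19, 30 and 19 tags in KO and 35, 61, 39 and 36 in WT (−0.61, SE 0.19, adjusted p = 0.0227). Neither region's groups overlapped after scaling. The first call held without any 1 library but not with the deposited fold (−0.47, adjusted p = 0.0928), and the second had an adjusted p of 0.092 without KO replicate 1_3, 0.067 without KO replicate 3 and 0.09 without WT replicate 1_3.

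The Skil promoter, chr3:31094366-31095205, had 403, 324, 332 and 341 tags in KO and 378, 412, 456 and 395 in WT, a difference of −0.02 (SE 0.09, adjusted p = 0.928). The intron region at 0.729 kb, chr3:31095445-31096018, had 268, 262, 187 and 164 tags in KO and 257, 302, 237 and 247 in WT (−0.06, SE 0.10, adjusted p = 0.758). At both the groups overlapped, and the lower calls at Skil all lay in its distal flank. In the same flank, 43.6 kb from the 5′ end and 11.2 kb from the start of Cldn11, chr3:31138544-31138750 had a peak in KO replicates 1_2, 1_3 and 3 (21, 18 and 16 tags) and in no WT library.

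At Ski (ENSMUSG00000029050.15, chr4:155154075-155222592, minus strand), 2 of 15 tested regions were higher in KO and none was lower. The intron region chr4:155178199-155178893, 44.1 kb from the 5′ end, had 208, 210, 179 and 156 tags in KO and 154, 173, 188 and 134 in WT. Scaled, these were 202 ± 11.8 and 150 ± 17.6 tags (SD, n = 4 each) without overlap, a log2 difference of 0.43 (SE 0.09, adjusted p = 0.0011), or 1.35-fold more in KO. The call held without any 1 library but not with the deposited fold (0.29, adjusted p = 0.102). The region at the 5′ end, chr4:155222950-155223820 at −0.786 kb, had 317, 301, 290 and 278 tags in KO and 298, 271, 296 and 253 in WT (0.30, SE 0.09, adjusted p = 0.0173). Its scaled groups did not overlap, but WT replicate 1_3 lay far below the other WT libraries, and the adjusted p was 0.122 without it and 0.061 without KO replicate 3. The most accessible region of Ski, chr4:155217195-155217824 at 5.02 kb, had 467, 386, 417 and 392 tags in KO and 474, 540, 534 and 442 in WT, and its difference was −0.05 (SE 0.08, adjusted p = 0.761). An intron region at 59.2 kb, chr4:155163214-155163564, had a difference of −0.32 (SE 0.11, adjusted p = 0.0536) and was not called. Of the 15 tested differences at Ski 5 were negative, and their median was 0.041.

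The number of calls depended on the scaling. When the libraries were scaled by their genome-wide background in place of their median summit, none of the 72 regions was called higher and 6 were called lower in KO, and over all regions the share of higher calls went from 45.3% to 22.4%. At the 3 regions called higher the differences stayed positive, at 0.37 and 0.24 for the Ski intron and 5′ end and 0.54 for Smad7, with larger SEs (0.158 in place of 0.094 at the Ski intron). The median difference of all regions moved from 0.043 to −0.013.

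**Figure D4:**
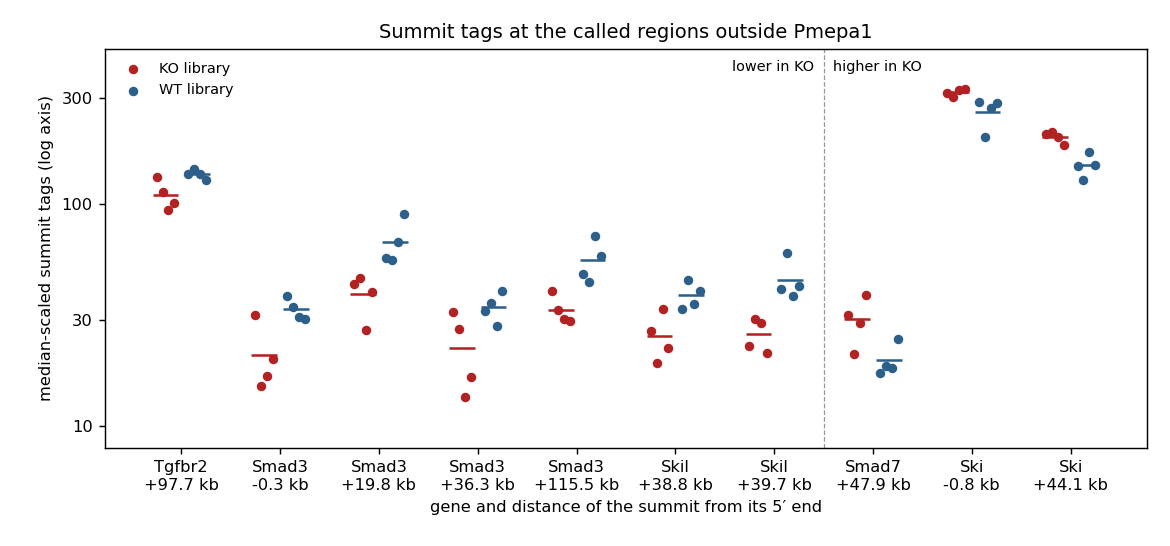
Median-scaled summit tags (log axis) at the 10 called regions outside Pmepa1, with each point a library and bars the group means (n = 4 each), 7 lower in KO to the left of the dashed line and 3 higher to its right. The differences are small beside that of Pmepa1, at 1.25- to 1.74-fold for the lower regions and 1.23- to 1.51-fold for the higher ones.

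**Figure D5:**
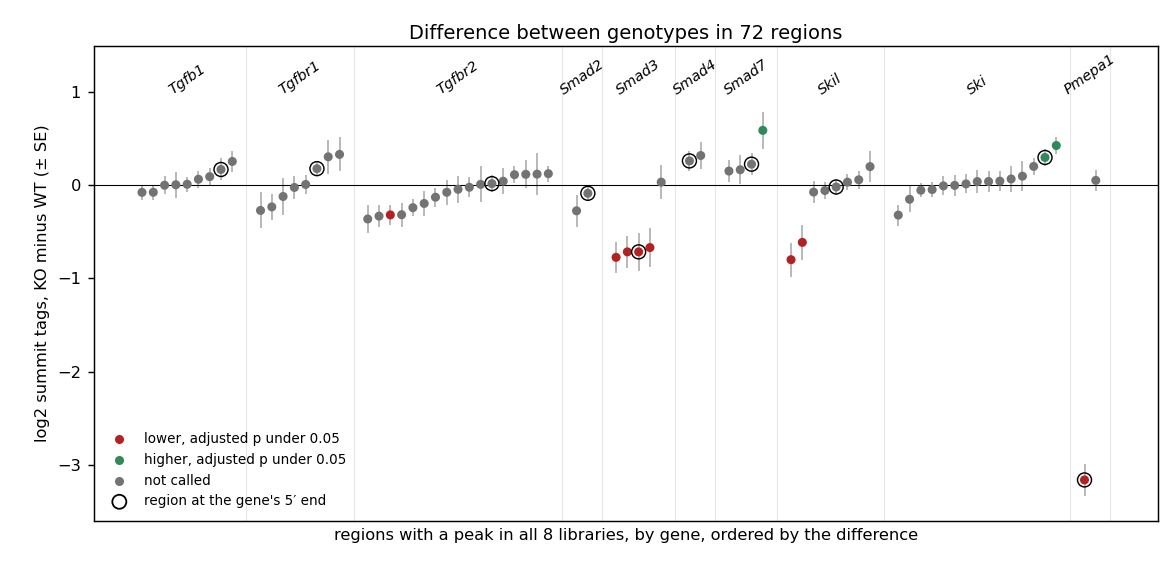
Log2 difference in summit tags (KO minus WT, ± SE) of the 72 regions called as peaks in every library, grouped by gene and ordered within each, with rings around the regions at the genes' 5′ ends. The Pmepa1 promoter at −3.16 stands apart from the other 71 regions, which lie between −0.80 and 0.59.

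The short elements of the regions were counted within 100 bp of each summit and are given as a description. CAGAC was present in 52 of 107 member regions (48.6%) and in 41.2% of all consensus regions, and it was present in 7 of the 9 regions found in WT only and in 6 of the 8 Pmepa1 regions. The palindrome GTCTAGAC was in none of the 107 and in 0.275% of all. DR1 matched in 6 regions (5.61%, against 4.14% of all), 2 each at Tgfbr1 and Tgfbr2 and 1 each at Skil and Ski, and in none of the 9 found in WT only. GAGGAAGT, read by PU.1, the lineage factor of macrophages, was in 9.35% of the member regions and 10.7% of all, TTGCNNAA in 11.2% and 14.7%, TGTGGTT in 8.41% and 8.98%, and TGANTCA in 7.48% and 11.9%.

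The other genes of the pathway, a list of 53, held 409 consensus regions that are not among those above. Of these, 4 had a peak in all 4 WT libraries only and none in all 4 KO libraries only. Of 258 tested, 20 (7.75%) were lower and 16 (6.2%) were higher in KO, near the backgrounds given above. Genes for ligands and their storage had 7 lower and 3 higher of 70, and 4 of the 7 lay at Ltbp1, which encodes a protein that anchors latent TGF-β in the matrix, where all 4 tested regions were lower (log2 differences −1.68 to −0.70). Receptors and coreceptors had 3 lower and 3 higher of 50, the other SMADs and their partners 1 and 1 of 24, and the corepressors Skor1, Tgif1 and Tgif2 none of 10. Ubiquitin regulators had 4 lower and 3 higher of 35. All 4 lower ones lay at Nedd4l, a ligase gene (down to −1.26), and the largest rise was at Smurf2, another ligase gene (1.55). Target genes had 5 lower and 6 higher of 69. Ldlrad4, whose product resembles PMEPA1 and also sequesters SMAD2 and SMAD3, had 3 lower of 28 tested regions and 1 region found in WT only. With background scaling the pathway counts were 8 lower and 1 higher. Ltbp1, Nedd4l, Smurf2 and Ldlrad4 were named after their values had been seen.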

How the data were processed

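ATAC-seq was measured in 8 libraries of AMs, 4 KO and 4 WT, grouped by the genotype in the labels. After trimming with Cutadapt, the authors aligned reads to mm10 (Bowtie2), kept high-quality pairs (SAMtools), extended each transposase cut to 200 bp and called peaks per library with MACS3. The deposited lists give each peak a score (a rounded display value, not used), a ratio (fold over local background), a −log10 p-value and a −log10 q-value. From the deposited fold and −log10 p-value the tags at each summit were worked back, and whole tags gave the p-value back for 100% of peaks in each library (relative error at most 1e-05). The lists hold no read counts, so the study's count test was not fitted. Because a list holds only what passed its threshold, a missing peak is no measure of its tags.

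Peaks sharing a base were merged. Regions with a peak in all 8 libraries were compared with limma 3.58.1 (R 4.3.3, trend) on log2(tags + 0.5) centred on library medians, which assumes that most regions do not change. Motifs were read from GRCm38. Each gene's region at the 5′ end (within 1 kb), its one-sided regions, up to 3 called regions of smallest p and its region of most tags were named by rule. The fourth Smad3 call, the regions beyond the flanks of Pmepa1 and the pathway genes named were added after their values were seen. The members and gene lists were chosen with earlier results of these data known. The test was also run on simulated tags for the regions present in all 8 libraries. Their spread was set in advance, so that run does not measure the spread of the real replicates. Alternatives covered scaling, pseudocount, filters, flanks, merging, replicates 1_2 and 1_3 as 1 sample, and each library left out.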

Additional observations from a re-analysis of the deposited data

Results flagged for a closer look

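Within each genotype the scaled summit tags of the named regions were checked for 1 library far from the other 3, by Dixon's ratio of the gap to the range and its 95% limit for 4 samples. At the Smad7 region 47.9 kb from the 5′ end, the only Smad7 region called, WT replicate 4 had 24.8 scaled tags and the other WT libraries 17.4 to 18.6, a ratio of 0.835. It was the WT library nearest to KO, and the call was kept without it. Of the 45 groups checked this was the only one past the limit, and chance passes it in about 1 of 20 groups.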

How the results depend on the processing

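The 9 member regions found in WT only numbered 7 to 10 under every alternative tried, and none was found in KO only except 1 without KO replicate 2. The count of member regions called lower in KO, 8 in the reported fit, was 5 to 8 without 1 library (5 without KO replicate 2 or WT replicate 1_3), 5 when a peak in 6 libraries sufficed, 4 with flanks of 2 kb, and 2 with the deposited fold in place of tags. It rose to 9 with a pseudocount of 5, and to 10 with quantile normalisation or with flanks of 50 kb. The count called higher, 3 in the reported fit, was 1 to 5 without 1 library (1 without KO replicate 3 or WT replicate 1_3, 5 without WT replicate 4), 0 with background scaling, 0 with the deposited fold, 1 when 6 libraries sufficed, and 6 with flanks of 50 kb. Pathway counts fell from 20 lower and 16 higher to 8 and 1 with background scaling. Fewer regions were tested with 2 kb flanks, and the cause of the other moves was not tested. Over all regions 6097 were called, against 2563 with background scaling and 1678 with the deposited fold. Of the 11 called member regions, 5 were kept without any 1 library, and the Pmepa1 promoter and the distal Smad3 region at 116 kb were kept under every alternative. These counts are of all member regions called under a setting, not of the same regions. No called region changed direction, while the promoters of Tgfbr2 and Skil, which were not called, lay on either side of 0 (−0.06 to 0.10 and −0.11 to 0.06). Replicate names shared by the genotypes gave correlations of deviations of 0.0555, 0.116 and 0.0368. These were small, but they lay above those of all pairs with different names (−0.067 to 0.032). Whether libraries of the same name were handled together is not given in the labels and was not tested. With the replicate block 6 member regions were lower and 4 higher, and 6875 regions were called in all. The Tgfbr1 promoter was then called higher (0.23, adjusted p = 0.0103), and the Smad3 region at 36.3 kb and the Tgfbr2 region at 97.7 kb were no longer called (adjusted p = 0.242 and 0.081), and the Smad3 region at 19.8 kb had a difference of −0.46 (adjusted p = 0.0493). Depth limits the regions found in WT only, where a KO summit had to reach 6 to 86 tags to be seen.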
